A study of Mus musculus with 15 samples.

Results

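The messenger RNAs of 10 genes of the mTOR and Akt pathway were followed in the gastrocnemius of aged female mice that differed in frailty and had or had not run downhill. The genes are Mtor, Rptor, Rictor, Deptor, Akt1, Akt2, Tsc1, Tsc2, Ddit4 and Rps6kb1. They were chosen by name from a list of pathway genes, each symbol was matched to 1 Ensembl gene, and they are 10 of the 55450 genes counted. All 10 passed the filter on low counts, with between 314 and 21830 counts per mouse. All mice were female C57BL/6JN older than 17 months, and the labels name no transgene. Low Control mice (n = 4) and High Control mice (n = 3) stayed sedentary. Low Run mice (n = 4) and High Run mice (n = 4) ran 2 bouts downhill on a treadmill at 13 m/min and a decline of 22 degrees, and their muscle was taken 24 h after the last bout. Low mice, called robust in the sample labels, had at most 1 positive frailty marker of 5, and High mice, called frail there, had at least 2. Frailty was scored in the mice and not imposed on them, and each library was made from a portion of the powdered gastrocnemius of 1 mouse.

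The kinase mTOR works in a pair of complexes. With Raptor, the product of Rptor, it forms mTORC1, which drives protein synthesis and ribosome production and holds back autophagy when growth factors, amino acids and energy are plentiful. With Rictor it forms mTORC2, which phosphorylates Akt downstream of the insulin receptor. Akt relieves the brake that the TSC1-TSC2 complex puts on mTORC1 through the small GTPase Rheb. In skeletal muscle the pathway is known for its part in growth after loading, and it is regulated mainly by phosphorylation, which RNA counts do not measure.

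The sequences upstream of 3 genes are shown because the results turn on these genes: Mtor and Tsc1, which had the smallest p-values among the 10 genes, and Ddit4, which varied most between mice. They come from RefSeq on GRCm38.p6, which gave 250 bases before the start for 9 of the 10 genes, and they are printed up to the first base that GENCODE places in the gene. Capitals mark the CCAAT box (CCAAT or, on the other strand, ATTGG) and the letters ACGTG (or CACGT), which are the core of the hypoxia response element and part of the E-box CACGTG.
Mtor, chr4:148448332-148448581, plus strand: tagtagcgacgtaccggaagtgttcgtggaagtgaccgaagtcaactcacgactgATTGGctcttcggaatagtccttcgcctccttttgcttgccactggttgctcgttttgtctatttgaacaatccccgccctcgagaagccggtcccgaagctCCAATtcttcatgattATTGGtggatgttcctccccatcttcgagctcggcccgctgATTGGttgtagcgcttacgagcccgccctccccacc
Tsc1, chr2:28640983-28641227, plus strand: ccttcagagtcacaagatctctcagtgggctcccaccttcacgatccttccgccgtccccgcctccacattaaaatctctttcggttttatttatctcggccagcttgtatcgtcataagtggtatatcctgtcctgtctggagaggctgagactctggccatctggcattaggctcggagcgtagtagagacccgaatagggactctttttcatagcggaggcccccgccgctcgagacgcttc
Ddit4, chr10:59951835-59952020, minus strand: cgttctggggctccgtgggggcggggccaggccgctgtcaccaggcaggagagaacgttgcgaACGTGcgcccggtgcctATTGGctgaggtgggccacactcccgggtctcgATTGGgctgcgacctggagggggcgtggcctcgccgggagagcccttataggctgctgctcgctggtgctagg
Mtor held 4 CCAAT boxes, Ddit4 held 2 CCAAT boxes and 1 ACGTG, and Tsc1 held neither. Over all 32851 windows of 250 bases, 33.8% held a CCAAT box and 16.6% held ACGTG. The glucocorticoid receptor half-site AGAACA (or TGTTCT) was in 16.1% of all windows and among these genes only in that of Rps6kb1, and the FoxO motif GTAAACA (or TGTTTAC) was in 3.17% and only in 1 of the windows of Akt1. A match is a run of letters and not a measured binding site.

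Each count was scaled to a common library size by TMM and is given as CPM, the usual unit of counts relative to depth. Dividing further by the length of the gene's exons gives RPKM, which is used only to set genes beside each other. Gene coordinates are those of GENCODE on GRCm38. Libraries held from 19395125 to 30699216 counts. Skeletal muscle markers such as Acta1 and Ckm were all detected and summed to between 122700 and 189000 CPM in every mouse. In bulk muscle RNA, fewer cells of a type and less RNA per cell cannot be told apart. Several libraries stood apart. Mice D9 (Low Control) and D62 (High Run) lay farthest out on the first principal component, which held 25.8% of the variance. Mice D57 and D68 (Low Run) and D53 (High Run) had low counts of long transcripts, as described below. Summed neutrophil markers reached 411 CPM in D68 and summed erythroid markers 3860 CPM in D53, the highest values of any mouse. D62 had the highest summed slow fibre (4920 CPM) and Schwann cell markers (416 CPM) and the lowest summed fibroblast (554 CPM) and skeletal muscle markers. The part of these cells and fibres in the results was not tested.

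Per exon length, Ddit4 had the highest mean over the 15 mice at 99.8 RPKM, although it was above the next gene, Akt2, in only 10 of them. Akt2 (28.2 RPKM) and Akt1 (25.3 RPKM) followed. Deptor had 16.5 and Tsc2 12.0 RPKM. Rps6kb1 (5.96), Tsc1 (5.49) and Mtor (5.27) lay close together, and their differences in log2 RPKM, 0.15 ± 0.27 between Rps6kb1 and Tsc1 and 0.05 ± 0.17 between Tsc1 and Mtor (mean ± SD over 15 mice), were within the spread. The scaffold genes came last, with 3.00 RPKM for Rptor and 1.36 for Rictor, and in all 15 mice Mtor was above Rptor and Rptor above Rictor. In every mouse, too, Tsc2 was above Rps6kb1. The members also differed in how steady they were. The fold between the highest and lowest of 15 mice was 1.56 for Rps6kb1, 1.57 for Tsc2 and 1.71 for Akt2, but 3.04 for Akt1 and 40.6 for Ddit4. The SD of Ddit4 within groups, 1.68 on the log2 scale, was at percentile 99.3 of all tested genes, and that of Rps6kb1, 0.14, at percentile 3.7.

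**Figure D1:**
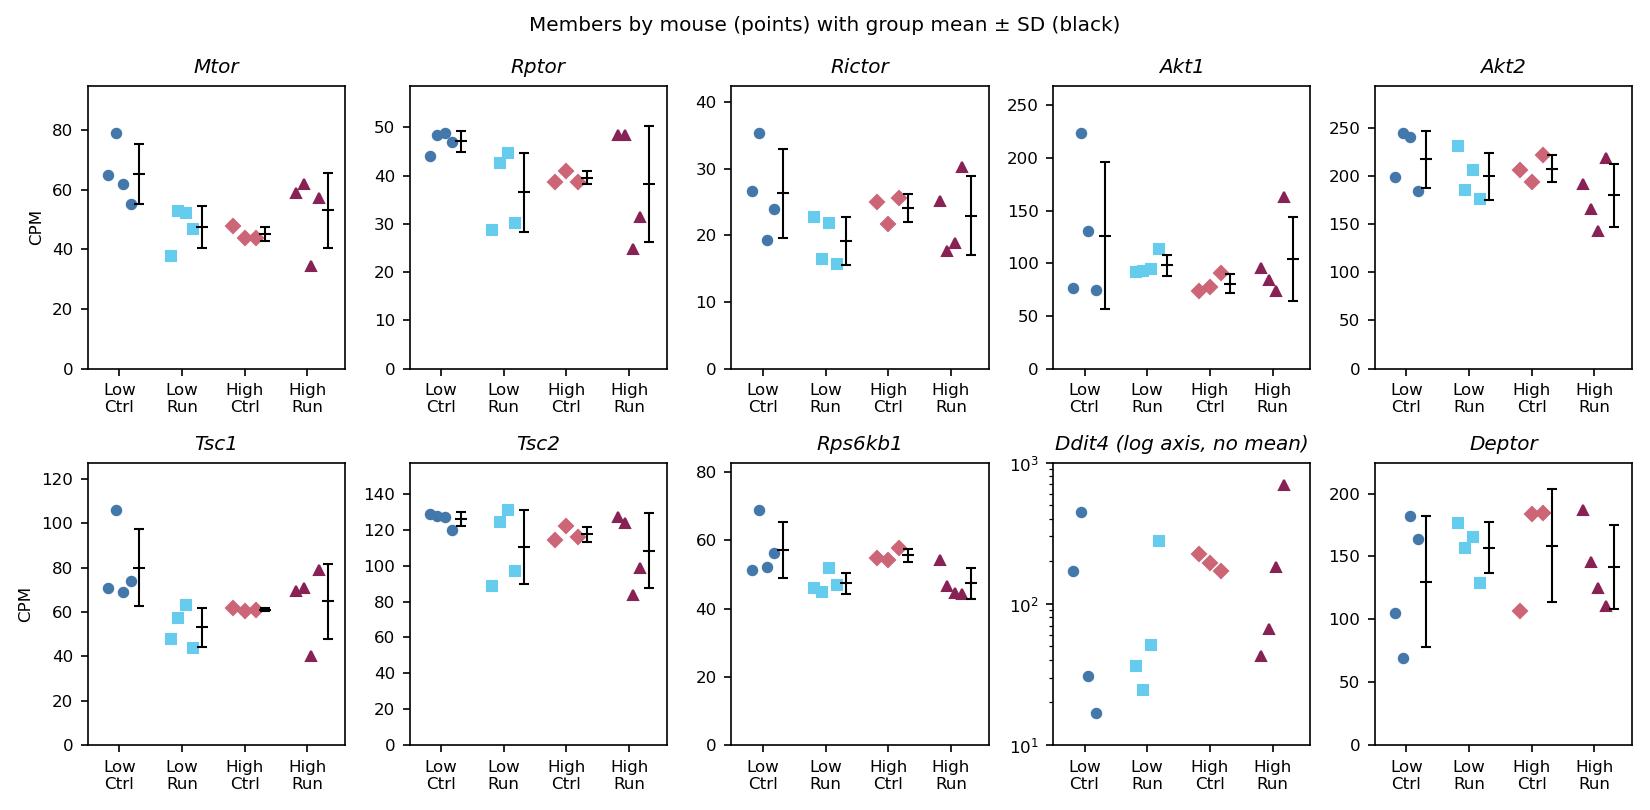
CPM of the 10 genes in each mouse (points) by group, with group mean ± SD in black, on axes that start at 0 except for Ddit4, which is on a log axis without a mean. Mtor and Tsc1 were lower in every Low Run mouse than in any Low Control mouse, and Ddit4 ranged from 17.0 to 688 CPM.

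Mtor (chr4:148448611-148557683) encodes the kinase itself. In Low Control mice its level was 64.9 (D8), 79.0 (D9), 62 (D11) and 55.1 CPM (D98). In Low Run mice it was 37.9 (D57), 53 (D61), 52.1 (D66) and 46.9 CPM (D68), so every Low Run mouse was below every Low Control mouse. High Control mice were as low as Low Run mice, at 48.0, 43.9 and 43.9 CPM, and also did not overlap Low Control. Among High Run mice, D49 (58.8), D52 (61.8) and D62 (57.2 CPM) were above the High Controls and D53 was the lowest of all mice at 34.5 CPM. The order of the groups was thus Low Control first, at 65.3 ± 10.1 CPM, with Low Run (47.5 ± 6.91) and High Control (45.2 ± 2.39) lowest and High Run (53.1 ± 12.6 CPM) overlapping each of the others.

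Of the 5 comparisons of Mtor, 3 had an unadjusted p under 0.05, and none of these passed adjustment over the 16920 genes tested (Benjamini-Hochberg). By edgeR's quasi-likelihood test, the log2 fold change of Low Run against Low Control was -0.46 ± 0.18 (SE, adjusted p = 0.358) and that of High Control against Low Control -0.53 ± 0.19 (adjusted p = 0.704). The difference between the run effects, High minus Low, was 0.69 ± 0.26 on the log2 scale, with a 95% interval of 0.14 to 1.24 (edgeR adjusted p = 0.600). High Run against High Control (0.23 ± 0.19, edgeR adjusted p = 0.958) and High Run against Low Run (0.16 ± 0.18, adjusted p = 0.999) had an unadjusted p above 0.05. These comparisons share mice: the same Low Controls enter 3 of them. Mtor kept its direction in each comparison under every alternative tried. Without D9, the highest Low Control, Low Run against Low Control was -0.36, and without D57, the lowest Low Run mouse, it was -0.37, both with an unadjusted p above 0.05. Without D53, High Run against High Control was 0.39, with an unadjusted p under 0.05.

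Rptor (chr11:119602905-119899576) encodes the scaffold that brings substrates to mTORC1. It was steady in Low Control mice, at 44.1, 48.4, 48.8 and 47.0 CPM. High Control mice had 38.7, 41.1 and 38.8 CPM, all below the Low Controls. Both run groups were split: Low Run mice had 28.7 (D57), 42.6 (D61), 44.6 (D66) and 30.2 CPM (D68), and High Run mice 48.3 (D49), 48.4 (D52), 24.7 (D53) and 31.5 CPM (D62). No comparison of Rptor had an unadjusted p under 0.05, with a log2 fold change of -0.37 ± 0.20 for Low Run (edgeR adjusted p = 0.406) and -0.25 ± 0.22 for High Control against Low Control (adjusted p = 0.744).

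Rictor (chr15:6708379-6800401), the defining subunit of mTORC2, had 26.6, 35.4, 19.3 and 23.9 CPM in Low Control mice and 22.7, 16.5, 21.9 and 15.7 CPM in Low Run mice, with overlap. The difference was -0.45 ± 0.21 on the log2 scale (unadjusted p under 0.05, edgeR adjusted p = 0.365), and without D9 it was -0.29, with a p above 0.05. High Control mice had 25.0, 21.6 and 25.7 CPM and High Run mice 25.1, 17.6, 18.8 and 30.3 CPM. The 2 scaffold genes were not tied to each other: the log2 ratio of Rictor to Rptor ran from -1.45 in D52 to -0.05 in D62, both High Run mice, and the group ranges overlapped. Deptor (chr15:55112317-55259271), which binds and inhibits mTOR in both complexes, lay between 69.3 CPM in D9 and 187 CPM in D49. Its largest log2 fold change between 2 groups was 0.29 ± 0.29, in High Control against Low Control (edgeR adjusted p = 0.777).

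Tsc1 (chr2:28641228-28691167) encodes hamartin, which stabilizes the TSC complex. Low Control mice had 70.6 (D8), 106 (D9), 69.2 (D11) and 74.0 CPM (D98), and Low Run mice 47.8 (D57), 57.2 (D61), 63.2 (D66) and 43.7 CPM (D68), with no overlap. The 3 High Control mice were nearly identical, at 61.6, 60.5 and 61 CPM, below every Low Control. High Run mice had 69.2 (D49), 70.9 (D52), 40.0 (D53) and 78.7 CPM (D62), so 3 of the 4 were above the High Controls. Tsc1 had the smallest unadjusted p of the members. Low Run against Low Control was -0.59 ± 0.20 on the log2 scale (edgeR adjusted p = 0.358), which is 0.663 times the Low Control level, and without D9 it was -0.44, still with an unadjusted p under 0.05. The difference between the run effects was 0.68 ± 0.29 (edgeR adjusted p = 0.600), and without D9 it was 0.52, with an unadjusted p above 0.05. High Control against Low Control was -0.39 ± 0.22 (adjusted p = 0.704) and High Run against High Control 0.08 ± 0.21 (adjusted p = 0.983).

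Tsc2 (chr17:24595816-24632630), whose product tuberin is the GTPase-activating subunit that acts on Rheb, had no p under 0.05. It was even in the control groups, between 120 and 129 CPM in Low Control and between 114 and 122 CPM in High Control mice. D57 (88.8), D68 (97.1), D53 (83.5) and D62 (99 CPM) were the only mice under 100 CPM, 2 in each run group. The other run mice, D61 (124), D66 (131), D49 (127) and D52 (124 CPM), were at the control level.

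Akt1 (chr12:112653821-112674884) and Akt2 (chr7:27591552-27640826) encode the kinases that mTORC2 and PDK1 activate, and Akt2 is known for its part in insulin-stimulated glucose uptake. Akt2 lay between 143 CPM in D53 and 245 CPM in D9, and its log2 fold changes were all within -0.21 and -0.07 with edgeR adjusted p-values of at least 0.705. Akt1 was between 73.4 and 130 CPM in all mice but D9 (224 CPM) and D62 (163 CPM). The log2 ratio of Akt2 to Akt1 per CPM averaged 1.02 over the 15 mice and was lowest in these same mice, 0.13 in D9 and 0.43 in D62. In High Control mice it was 1.29 to 1.49 and in High Run mice 0.43 to 1.01, without overlap, whereas Low Control (0.13 to 1.39) and Low Run (0.64 to 1.34) overlapped. This ratio was not tested, and how often ratios of other gene pairs do not overlap was not computed. In High Run against High Control, Akt1 was at 0.37 ± 0.33 and Akt2 at -0.21 ± 0.16 (edgeR adjusted p = 0.958 for both). Akt1 itself was lower in High Control than in Low Control with a log2 fold change of -0.65 ± 0.34 (edgeR adjusted p = 0.704), which without D9 became -0.22.

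Rps6kb1 (chr11:86498871-86544805) encodes S6 kinase 1, a main substrate of mTORC1. Low Control mice had 51.2, 69.0, 52.2 and 56.2 CPM and Low Run mice 46.2, 44.8, 51.8 and 46.8 CPM, of which only D66 reached a Low Control value. High Control mice had 54.7, 54.2 and 57.8 CPM and High Run mice 54.1, 46.6, 44.5 and 44.3 CPM, with no overlap, although D49 came close to the lowest High Control. The values of both run groups overlapped, as they did for each of the 10 members. The log2 fold change was -0.27 ± 0.12 in Low mice (edgeR adjusted p = 0.363) and -0.23 ± 0.13 in High mice (adjusted p = 0.956), and the difference between them was 0.04 with a 95% interval of -0.34 to 0.42. Without D9 the value in Low mice was -0.18, with an unadjusted p above 0.05.

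**Figure D2:**
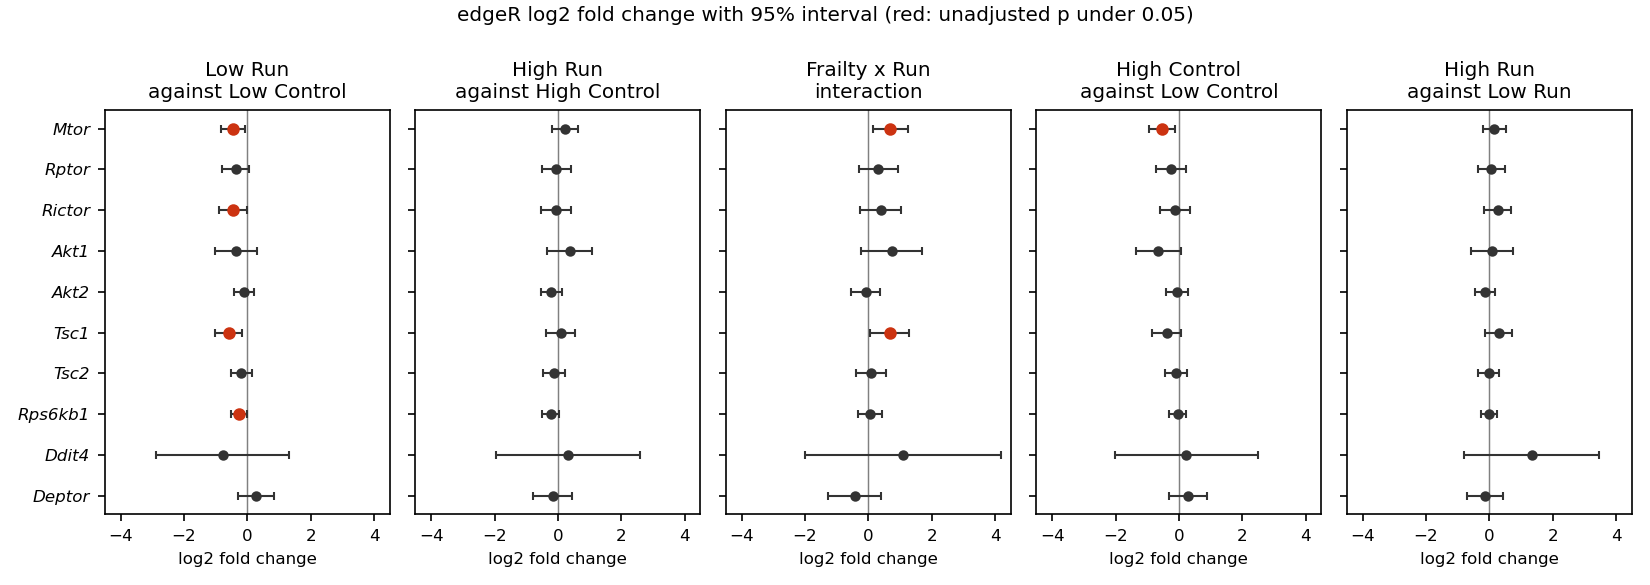
Log2 fold change of each gene (points) with its 95% interval in the 5 comparisons, from edgeR on all 15 mice, in red where the unadjusted p was under 0.05. Mtor, Rictor, Tsc1 and Rps6kb1 were red in Low Run against Low Control, Mtor and Tsc1 in the interaction, Mtor in High Control against Low Control and none in the remaining panels, and the intervals of Ddit4 were the widest.

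Over the 10 members, 0 were called at a false discovery rate of 0.1 in any comparison, by edgeR, DESeq2 or voom, and edgeR called 0% of all tested genes. The shares of all genes called by DESeq2 and voom are not given here. The study, with DESeq2 at the same rate, reported genes called in High mice after running. In Low Run against Low Control 4 of 10 had an unadjusted p under 0.05, where 13.4% of all tested genes did. All 4 were lower after running, a direction that 7.52% of tested genes showed. Of the members, 9 had a negative log2 fold change, with a median of -0.37 against 0.02 over all genes. The 2 that did not overlap, Mtor and Tsc1, stand beside 3.59% of all genes. This count rested in part on single mice, being 1 of 10 without D9, 2 without D57, D61 or D68 and 5 without D66. Without D9 the number of all genes at that level also dropped, from 2274 to 846. It was 1253 without D57, 2190 without D61, 1673 without D68 and 2205 without D66. In High Run against High Control 0 of 10 had an unadjusted p under 0.05, against a background of 5.18%, and only Rps6kb1 was lower without overlap, as 3.61% of all genes were. The count was 1 without D49 (Rps6kb1, at -0.31) and 1 without D53 (Mtor). The number of all genes at that level rose from 877 to 1124 without D49 and to 1034 without D53.

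In the interaction 2 of 10 had an unadjusted p under 0.05, Mtor and Tsc1, with a background of 7.93% in both directions and 5.24% in their positive direction. Mtor kept an unadjusted p under 0.05 in each of the 15 fits that left out 1 mouse, with values from 0.59 to 0.85, but not without D9 and D62 together (0.55). Tsc1 did so only in the 6 fits without D8, D11, D98, D61, D66 or D53. In High Control against Low Control 1 of 10 did, Mtor, where 5.86% of genes did and 4.06% were lower. Mtor kept its p under 0.05 in each of the 7 fits that left out 1 mouse, from -0.60 to -0.43, and Akt1 joined it without D8 or D98. The number of all genes at that level rose from 992 to 1177 without D8 and to 1805 without D98. With all mice, 3 members (Mtor, Rptor and Tsc1) were lower in High Control than in Low Control without overlap, a pattern of 5.28% of genes. In High Run against Low Run 0 of 10 had a p under 0.05 or no overlap, with backgrounds of 2.51% and 1.48%. Without D53 the count was 2, Mtor at 0.32 and Tsc1 at 0.46, and without D68 it was 1, Ddit4. The number of all genes at that level also rose, from 424 to 979 without D53 and to 520 without D68.

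The mice differed in the level of long transcripts relative to short ones, and most of the members are long. Whether this came from the libraries or from the muscle was not tested. A length tilt was computed for each mouse as the median log2 CPM, centred per gene, of the 2529 tested genes with over 8000 nucleotides of exon minus that of the 3966 genes under 2000 nucleotides. It ran from 0.09 to 0.40 in Low Control, from -0.41 to 0.07 in Low Run, from -0.07 to 0.04 in High Control and from -0.47 to 0.28 in High Run mice. The 3 lowest mice were D53 (-0.47), D57 (-0.41) and D68 (-0.41), and the highest was D9. Low Control did not overlap Low Run or High Control in this measure. Of the members, 7 have exons over 8000 nucleotides and Ddit4, with 1755, is the only one under 2000.

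Across the 15 mice, which span 4 groups, Pearson's r of log2 CPM with the length tilt was 0.92 for Rptor, 0.89 for Tsc2, 0.89 for Tsc1 and 0.85 for Mtor. It was 0.65 for Rps6kb1, 0.47 for Rictor, and -0.13 for Deptor although Deptor too is long. Of all tested genes 4.16% had an r above 0.8, and of those over 8000 nucleotides 11.8% did. Without D53 and D57, r was 0.85 for Rptor, 0.82 for Tsc1, 0.78 for Tsc2 and 0.70 for Mtor. When each mouse's counts were offset by a smooth function of exon length and GC content, the members with an unadjusted p under 0.05 in Low Run against Low Control were 1 of 10, Tsc1 at -0.40 (edgeR adjusted p = 0.418), and Mtor was at -0.26 (adjusted p = 0.438). Of all tested genes 11.7% had such a p in that comparison with the offsets. The interaction then had 0 of 10, where 7.39% of all genes had such a p, with Mtor at 0.38 (adjusted p = 0.631) and Tsc1 at 0.37 (adjusted p = 0.632). Mtor in High Control against Low Control was -0.36, still with an unadjusted p under 0.05 (adjusted p = 0.709), where 5.98% of all genes had one. In High Run against High Control, Rps6kb1 at -0.25 (adjusted p = 0.748) and Tsc2 at -0.21 (adjusted p = 0.764) then had an unadjusted p under 0.05, as 6.51% of all genes did.

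**Figure D3:**
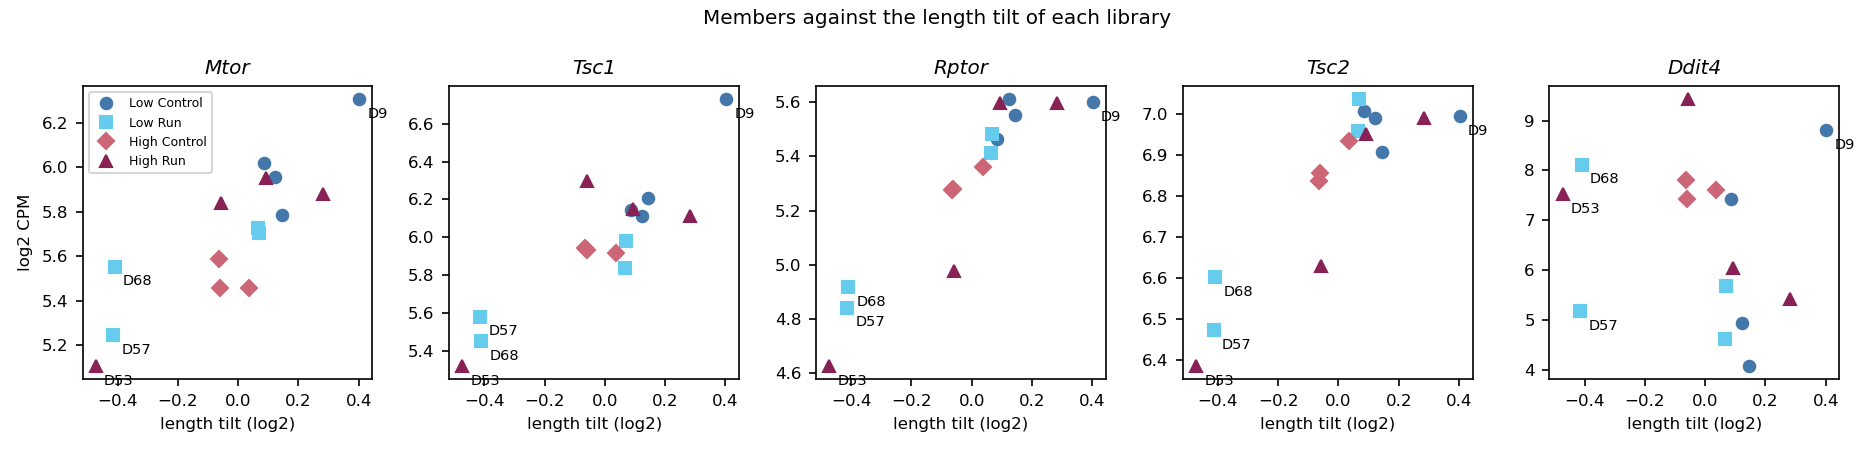
Log2 CPM of Mtor, Tsc1, Rptor, Tsc2 and Ddit4 against the length tilt of each library, 1 point per mouse, coloured by group. Rptor, Tsc1 and Tsc2 were lowest in D53, D57 and D68. Mtor was lowest in D53 and D57, but in D68 it was above the High Control mice D25 and D67. These long genes had an r between 0.85 and 0.92, and Ddit4 had an r of -0.16.

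Ddit4 (chr10:59949669-59951834) encodes REDD1, which represses mTORC1 through the TSC complex and is known to be induced by glucocorticoids, hypoxia and other stress. Low Control mice had 172 (D8), 447 (D9), 30.7 (D11) and 17.0 CPM (D98). Low Run mice had 36.4 (D57), 24.5 (D61), 51.4 (D66) and 277 CPM (D68). The sedentary High mice were alike, at 224, 194 and 172 CPM, and the High Run mice were not, at 42.6 (D49), 66.4 (D52), 183 (D53) and 688 CPM (D62). The spread within a group was thus 26.4-fold in Low Control, 11.3-fold in Low Run and 16.1-fold in High Run mice, and 1.31-fold in High Control mice. No comparison of Ddit4 had an unadjusted p under 0.05 by edgeR with all mice. Low Run against Low Control was -0.78 ± 0.99 on the log2 scale (edgeR adjusted p = 0.717), High Run against High Control 0.32 ± 1.07 (adjusted p = 0.987) and High Run against Low Run 1.33 ± 1.00 (adjusted p = 0.999). High Control against Low Control was 0.24 ± 1.06 (edgeR adjusted p = 0.960), which became 1.42 without D9, and with limma voom sample quality weights it was 2.13, with an unadjusted p under 0.05 (voom adjusted p = 0.472). Without D62, High Run against High Control was -1.02, and without D68, High Run against Low Run was 2.71, so single mice set both its sign and its size.

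The genes most like each member over the 15 mice were found by Pearson's r of log2 CPM, which is given as a description because all genes of a mouse share 1 library. Ddit4 was most like Cebpd (r = 0.95), Nfkbia (0.94) and Arrdc2 (0.92). Mtor was most like Ubr4 (0.97), Ubr2 (0.96) and Setd5 (0.96). Tsc1 was most like Zbtb39 (0.97), Fbxw11 (0.97) and Zfp646 (0.97). Rptor was most like Cyb561d1 (0.975), Fyco1 (0.968) and then Tsc2 (0.965). Tsc2 was most like Rptor (0.965), Man2a2 (0.963) and Arhgef11 (0.952). Rps6kb1 was most like Csgalnact2, Rab6a and Kpna4 (r of 0.93 to 0.97), Akt1 like Hgs, Eif3b and P2rx5 (0.93 to 0.95), and Deptor like Lrp2bp, Ggcx and Cacnb1 (0.92 to 0.94). Rictor with Jph1, Mbtd1 and Kbtbd2 (0.87 to 0.88) and Akt2 with Gm6376, Prdm4 and Vps26a (0.83 to 0.85) had the weakest likenesses. Among the members, Mtor and Tsc1 had an r of 0.88, and Ddit4 and Deptor, both inhibitors, one of -0.67, which was -0.82 within groups.

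Ddit4 was set beside lists of genes induced by the stimuli known to act on it. With 10 glucocorticoid-induced genes the median r was 0.73, from 0.12 for Sgk1 to 0.95 for Cebpd, where the median over all tested genes was -0.02. With 10 tested targets of ATF4, the transcription factor of the integrated stress response, the median was 0.27, and with 8 Hif1 genes 0.52. D9 and D62, the highest Ddit4 mice, were also the 2 highest in 8 of the 10 glucocorticoid genes, in 2 of 10 ATF4 targets and in 4 of 8 Hif1 genes, a coincidence that 13.3% of all tested genes shared. Without these mice the medians were 0.54, 0.22 and 0.37. Cebpd (0.92) and Tsc22d3, which encodes GILZ (0.85), kept the highest r in the glucocorticoid list without them, while Zbtb16, whose r was 0.39 over all mice, was at -0.06. Among ATF4 targets, Atf4 itself had an r of 0.77 and Ddit3, which encodes CHOP, -0.53.

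**Figure D4:**
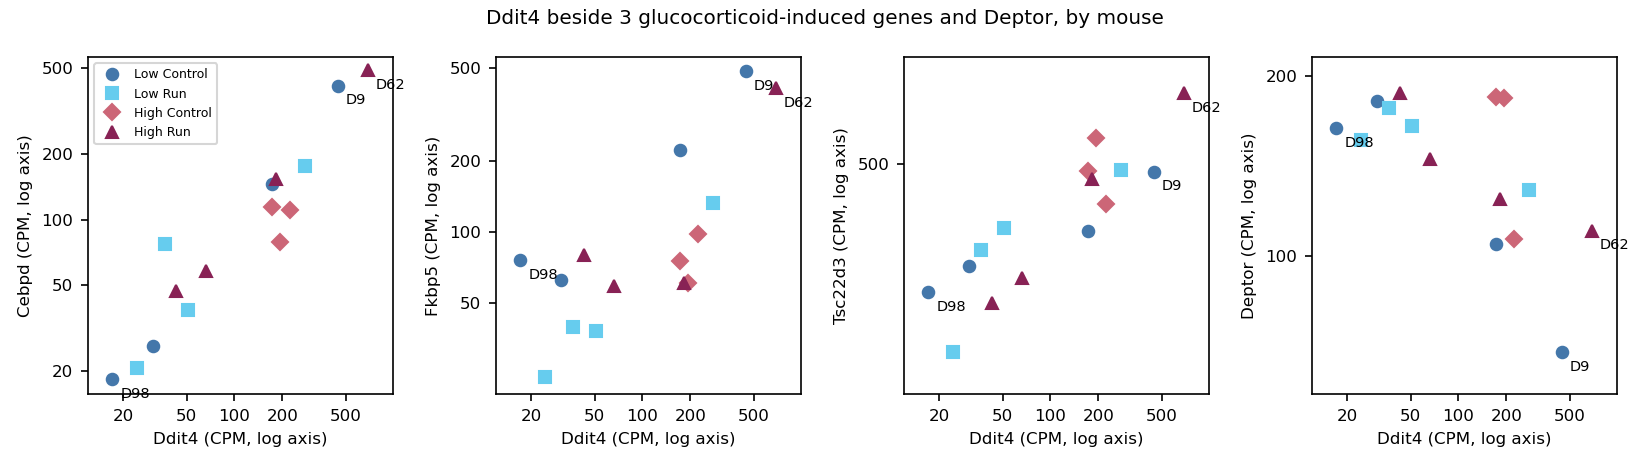
CPM of Cebpd, Fkbp5, Tsc22d3 and Deptor against that of Ddit4, 1 point per mouse on log axes, coloured by group. The first 3 tended to be high where Ddit4 was high, with r of 0.95, 0.76 and 0.89, and Deptor was lowest in D9.

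Beyond the members, 121 other genes of the pathway and its inputs and outputs were listed, of which 119 passed the filter. Fgf21 and Gdf15, hormones induced by ATF4, did not, with at most 14 and 12 counts in a mouse. In the 5 comparisons 0 of the 119 were called at a false discovery rate of 0.1 by edgeR. In Low Run against Low Control 3 had an unadjusted p under 0.05 and were higher and 17 were lower, or 16.8% against the 13.4% of all genes. The 17 lower genes, where 7.52% of all tested genes were lower at that p, came from 5 of the 9 lists. They were 3 of 14 genes for PI3K, PDK1 and phosphatases, 3 of 30 for amino acid input, 4 of 18 mTORC1 outputs, 3 of 10 Akt and SGK outputs and 4 of 10 glucocorticoid-induced genes. None came from the 8 mTOR complex partners, the 14 genes for TSC, Rheb and energy input, the 10 ATF4 targets or the 8 Hif1 genes. The smallest p-values belonged to Zbtb16 at -1.92 ± 0.59, Eif4ebp2, a translational repressor that mTORC1 inactivates, at -0.42 ± 0.13, and Lpin1, a lipin that mTORC1 keeps out of the nucleus, at -1.16 ± 0.38 (log2 fold change ± SE). Gsk3b, a kinase that Akt inhibits, was at -0.83 ± 0.27 and Tbc1d1, a regulator of glucose transporter traffic, at -0.88 ± 0.30 (edgeR adjusted p = 0.358).

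Of these, Eif4ebp2 had the least spread, with 410 ± 36.6 CPM in Low Control against 306 ± 23.3 in Low Run mice and 402 ± 26.9 in High Control against 327 ± 53.2 CPM in High Run mice. The others were far more variable in Low Control mice: Lpin1 had 666 ± 430 CPM there and 299 ± 52.6 in Low Run. The 3 higher genes were the subunits Lamtor2 (0.39 ± 0.15) and Lamtor4 (0.42 ± 0.17) of the Ragulator complex, which anchors mTORC1 to the lysosome, and Mapkap1, which encodes the mTORC2 subunit Sin1 (0.33 ± 0.15, edgeR adjusted p = 0.368). These 3 were not among those with a p under 0.05 once length and GC were offset, when 0 were higher and 16 lower. Without D9 and D62, 1 was higher and 8 lower, and without D53, D57 and D68, 2 were higher and 7 lower. The share of all genes with such a p was 11.7% with the offsets. It was 7.33% without D9 and D62 and 5.61% without D53, D57 and D68.

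In High Run against High Control 1 of the 119 genes was higher and 1 lower at an unadjusted p under 0.05, or 1.68% against the 5.18% of all genes. Egln3, an oxygen-sensing hydroxylase gene that Hif1 induces, was at 1.23 ± 0.52 and Prkab2, a subunit of the energy sensor AMPK, at -0.47 ± 0.21 (edgeR adjusted p = 0.956). Neither overlapped between the groups, and 3.61% of all genes were lower without overlap, as Prkab2 was. The share that were higher without overlap, as Egln3 was, is not given here. Both genes were named for their small p in this same comparison. With length and GC offset, 1 was higher and 4 were lower, Tti1 (-0.31), Wdr59 (-0.37) and Eif4ebp2 (-0.36) besides Prkab2, and 6.51% of all genes had such a p. Without D9 and D62, 1 was higher and 3 lower, where 6.85% of all genes had such a p. Without D53, D57 and D68, 2 were higher and 0 lower, where 6.78% did. In the interaction 16 were higher and 1 lower, or 14.3% against 7.93% of all genes, of which 5.24% were higher. With the offsets 10 were higher and 3 lower, and the share of all genes was 7.39%. The leading genes were Pik3r1, the regulatory subunit of PI3K, at 2.22 ± 0.72, Zbtb16 at 2.5 ± 0.86, Gsk3b at 1.08 ± 0.40, Lpin1 at 1.47 ± 0.55 and Egln3 at 1.77 ± 0.69 (edgeR adjusted p = 0.600). Pik3r1 had 142 ± 115 CPM in Low Control, 61.4 ± 13.3 in Low Run, 54.7 ± 7.94 in High Control and 110 ± 80.3 in High Run mice. The SDs of Low Control and High Run, the groups of D9 and D62, were thus several times those of the others, and without both mice the interaction count was 2 higher and 2 lower. Of all genes tested in that fit, 4.42% had such a p. Without D53, D57 and D68 the interaction count was 15 higher and 2 lower, where 7.45% of all genes had such a p. The part of any of these mice in the counts was not tested.

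In High Control against Low Control 0 of the 119 were higher and 8 lower, or 6.72% against 5.86% of all genes. They were led by Fnip2, a folliculin partner in amino acid sensing, at -0.93 ± 0.30, Pik3r1 at -1.37 ± 0.54, the phosphatase gene Inpp4b at -0.46 ± 0.18, Tbc1d1 at -0.83 ± 0.33 and Gsk3b at -0.70 ± 0.29, with edgeR adjusted p-values of 0.704. Fnip2 and Inpp4b, named for their small p in this comparison, were lower without overlap, as 5.28% of all genes were. With length and GC offset, 2 genes of amino acid input were higher, Kptn (0.48) and Castor2 (0.40), and 4 genes were lower, and without D9 and D62, 1 was higher and 2 lower. Such a p was reached by 5.98% of all genes with the offsets and by 3.8% without these mice. Without D53, D57 and D68, 0 were higher and 10 lower, where 6.94% of all genes had such a p. In High Run against Low Run 4 were higher and 0 lower, or 3.36% against 2.51% of all genes. They were Ndrg1, a substrate of the Akt-related kinase SGK1, at 0.62 ± 0.19, Tbc1d4, an Akt substrate in glucose uptake, at 0.49 ± 0.21, Egln3 at 1.02 ± 0.47 and Zbtb16 at 1.25 ± 0.58, with edgeR adjusted p-values of 0.999. Without D9 and D62, 1 of the 118 genes then tested was higher and 0 were lower, where 2.73% of all genes had such a p. Without D53, D57 and D68, 5 were higher and 1 lower, where 3.48% of all genes had such a p.

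The highest and lowest values of the 10 members were spread over 9 mice, of which only D9 and D53 were the highest or the lowest for more than 2 members. D9 was the highest mouse for 6 members, Mtor, Rictor, Akt1, Akt2, Tsc1 and Rps6kb1, and the lowest for Deptor, and it was the highest mouse in 22.7% of all tested genes. D53 was the lowest mouse for 5 members, Mtor, Rptor, Akt2, Tsc1 and Tsc2, and the lowest in 10.6% of all tested genes. No High Control mouse was the highest for any member, and D23 was the lowest for Akt1. Of all tested genes, D23, D25 and D67 were the highest mouse in 2.63%, 5.02% and 3.47%, and D23 was the lowest in 3.88%.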

How the data were processed

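RNA was sequenced from the gastrocnemius of 15 mice in the 4 groups. Per the labels and the study's methods, the authors used STAR 2.7.9a with the mm10 genome for alignment and featureCounts for read pairs per gene. The submitters' processing notes name Subread 2.0.3, FastQC 0.11.7 and DESeq2 1.32.0. The deposited counts are whole numbers of read pairs per Ensembl gene, without normalization. A second deposited table, a variance-stabilized version of the same counts, was not used. Total counts per mouse had a median of 25926420, which left every member with at least 314 counts, so that the spread between mice and not counting noise limits the precision.

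The main fits used edgeR 4.0.16 (R 4.3.3). After filterByExpr, which kept 16920 of 55450 genes, and TMM scaling, quasi-likelihood F-tests were run with 1 mean per group and all 15 mice in 1 fit. Benjamini-Hochberg adjustment was over all tested genes, with calls at a false discovery rate of 0.1. Run mice were compared with controls within each frailty group, these run effects with each other (interaction), and High with Low mice separately among controls and among runners. Log2 CPM had 0.5 counts added. Names, coordinates and exon lengths came from GENCODE M21. Alternatives were DESeq2 1.42.0, limma 3.58.1 voom with sample quality weights, RLE scaling, no count filter, only the groups compared, offsets from a loess (span 0.3) on exon length and GC content, and each mouse left out. Fits without D9 and D62, and without D53, D57 and D68, were chosen after seeing the data. The fits were tested on simulated data. The members, gene lists and tests were chosen with earlier results of these data known. The genes named are the 10 members with values in every mouse where p was under 0.05 or groups did not overlap, their 3 most alike genes, up to 5 listed pathway genes per comparison with the smallest p under 0.05, and those set beside Ddit4. Further genes (Lamtor2, Lamtor4, Mapkap1, Kptn, Castor2, Tti1, Wdr59) were named after their values were seen. The labels name no batch and no culture or cage, so p-values measure the spread between single mice.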

Additional observations from a re-analysis of the deposited data

Results flagged for a closer look

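Over the 10 members and the 3 groups of 4 mice, 30 sets of 4 values were checked for a mouse far from the other 3, and 2 were found. Chance gives about 1 in 20 such sets. Mtor in the High Run mouse D53, at a log2 CPM of 5.11, was far below the other High Run mice. Tsc1 in the Low Control mouse D9, at a log2 CPM of 6.73, was far above the other Low Control mice. D53 had the lowest length tilt of all mice and D9 the highest. The part of the tilt in these values was not tested. No member had every run mouse of one frailty group on one side of its control mean and every run mouse of the other group on the opposite side.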

How the results depend on the processing

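The 0 members called at a false discovery rate of 0.1 stayed 0 under each alternative run. With length and GC offsets, and in the fits that left out 1 mouse, 0 of all tested genes were called. Without D53, D57 and D68, 2 of 17174 genes were called in Low Run against Low Control. The unchanged 0 therefore says little about the members in particular. The counts of members with an unadjusted p under 0.05 moved. The share of all genes at that p moved as well, and is not given here for voom weights, for only the groups compared or without the count filter. In Low Run against Low Control it was 13.4% in the report and 11.7% with the offsets. It was 7.33% without D9 and D62 and 5.61% without D53, D57 and D68. For Low Run against Low Control (4 in the report) the count was 2 with voom weights, 1 with length and GC offsets, 2 with only the groups compared, 1 without D9 and D62, 1 without D53, D57 and D68, and 1 to 5 when single mice were left out. For High Run against High Control (0) it was 3, 2, 0, 1 and 1 in the same settings and 0 to 1 with each mouse left out. The share of all genes there was 5.18% in the report and 6.51% with the offsets. That share was 6.85% without D9 and D62 and 6.78% without D53, D57 and D68. For the interaction (2) it was 0 with the offsets, 0 without D9 and D62, 2 without D53, D57 and D68, and 1 to 2 with each mouse left out. The share of all genes was 7.93% in the report, 7.39% with the offsets, 4.42% without D9 and D62 and 7.45% without D53, D57 and D68. For High Control against Low Control (1) it was 2 without the count filter, 2 with voom, 3 with only the groups compared, 2 without D53, D57 and D68, and 1 to 2 with each mouse left out. The share of all genes was 5.86% in the report, 3.8% without D9 and D62 and 6.94% without D53, D57 and D68. For High Run against Low Run (0) it was 0 to 2 with each mouse left out. The cause was not tested. With a prior count of 2 the log2 ratios of Akt2 to Akt1 and of Rictor to Rptor moved by less than their SD over mice.

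None of these fold changes was called, and each turned its sign in the setting named (log2 values). With voom weights the values were Ddit4 0.20 in Low Run against Low Control, Rptor 0.16, Tsc2 0.016 and Ddit4 -1.38 in High Run against High Control, Rictor -0.007, Rps6kb1 -0.048 and Ddit4 -1.58 in the interaction, Rictor 0.065 and Rps6kb1 0.050 in High Control against Low Control, Akt1 -0.10, Tsc2 0.024 and Rps6kb1 0.002 in High Run against Low Run. With length and GC offsets the values were Akt2 0.040 in Low Run against Low Control, Tsc1 -0.030 in High Run against High Control, Rptor -0.049, Tsc2 -0.20 and Rps6kb1 -0.027 in the interaction, Akt2 0.057, Tsc2 0.058 and Rps6kb1 0.011 in High Control against Low Control, Rptor -0.12 in High Run against Low Run. With only the groups compared the values were Rps6kb1 0.002 in High Run against Low Run. Without D9 and D62 the values were Akt1 0.056 and Ddit4 0.40 in Low Run against Low Control, Rptor 0.028, Tsc1 -0.030 and Ddit4 -1.02 in High Run against High Control, Rps6kb1 -0.029 and Ddit4 -1.42 in the interaction, Rictor 0.042 and Rps6kb1 0.056 in High Control against Low Control, Akt1 -0.22, Tsc2 0.010, Rps6kb1 0.027 and Ddit4 -0.004 in High Run against Low Run. Without D53, D57 and D68 the values were Tsc2 0.022 in Low Run against Low Control, Rptor 0.11 and Rictor 0.017 in High Run against High Control, Akt2 0.037 and Tsc2 -0.033 in the interaction, Rptor -0.030 and Rps6kb1 0.001 in High Run against Low Run.

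Leaving out single mice, the ranges that crossed 0 were Akt1 -0.55 to 0.056 and Ddit4 -2.16 to 0.40 in Low Run against Low Control. They were Ddit4 -1.02 to 0.66, Rictor -0.24 to 0.034, Rptor -0.19 to 0.11 and Tsc1 -0.030 to 0.26 in High Run against High Control. They were Akt2 -0.19 to 0.010, Ddit4 -0.24 to 2.47, Rps6kb1 -0.059 to 0.091 and Tsc2 -0.018 to 0.18 in the interaction. They were Ddit4 -0.14 to 1.42, Rictor -0.26 to 0.042 and Rps6kb1 -0.090 to 0.056 in High Control against Low Control. They were Akt1 -0.22 to 0.22, Ddit4 -0.005 to 2.71, Rps6kb1 -0.076 to 0.044, Rptor -0.073 to 0.23 and Tsc2 -0.12 to 0.079 in High Run against Low Run. The other 32 of the 50 fold changes kept their sign in these fits. No paired analysis was possible because the mouse numbers in the labels are not shared between groups.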
